A study of Homo sapiens with 12 samples.

Results

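The genes described here are 40 human genes of the endoplasmic reticulum (ER) and its stress response, fixed by a list of gene symbols that was drawn up with earlier results of these data known, and found among the 61906 genes of the deposited count tables. By role they are 11 chaperones and co-chaperones, 6 enzymes of disulfide bond formation, 4 genes of ER-associated degradation (ERAD), 5 stress sensors and their relatives, 9 genes of the ATF4 arm and 5 genes of the protein entry channel (translocon). RNA was sequenced from MOLM-14, a human acute myeloid leukemia cell line, in 4 groups of 3 libraries that the labels call biological replicates. In the knockdown experiment the cells carried a lentiviral shRNA against DDX5 (shDDX5) or a control shRNA (shControl), both delivered by spinoculation, and were collected 96 hours after infection. In the compound experiment the cells were kept for 6 hours in 100 nM RX-5902 or in 0.1% DMSO. DDX5 encodes a DEAD-box RNA helicase, and RX-5902 is a small molecule described as a ligand of its phosphorylated form. Virus was thus shared by shDDX5 and shControl cells, none is described for the compound experiment, and no control was shared between the experiments.

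Secreted and membrane proteins fold in the ER with the help of chaperones and disulfide enzymes, and misfolded ones are pulled back out for degradation. Unfolded protein is sensed by 3 membrane proteins. ATF6 is cut to release a transcription factor, IRE1 (gene ERN1) splices the XBP1 RNA so that it encodes another, and both factors raise chaperone and degradation genes. PERK (gene EIF2AK3) phosphorylates eIF2alpha, which lowers translation in general while that of ATF4 is raised, and ATF4 drives genes of amino acid supply and of cell death such as DDIT3.

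The DNA element through which ATF6 and XBP1 act on chaperone genes, the ER stress response element, is written CCAAT, then 9 bases of any kind, then CCACG. It was searched on both strands of the RefSeq promoter windows (build GRCh38.p14), which run from 250 bases before to 50 bases after a gene's start. Windows were found for 38 of the 40 genes. PDIA3 and SPCS1 had none and were not searched. It stood in 7 of these 38 windows (18.4%), against 27 of all 35116 windows (0.0769%). The 7 are printed because they are the members whose window holds the element, and of the 8 chaperones that rose in the knockdown 3 are among them. Each is given from 5′ to 3′ on the gene's own strand, with the element in capitals, and where the element lies on the opposite strand the capitals begin with CGTGG and end with ATTGG. HSP90B1 had 2 such elements.
HSPA5: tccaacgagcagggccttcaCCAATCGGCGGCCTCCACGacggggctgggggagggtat
HSP90B1: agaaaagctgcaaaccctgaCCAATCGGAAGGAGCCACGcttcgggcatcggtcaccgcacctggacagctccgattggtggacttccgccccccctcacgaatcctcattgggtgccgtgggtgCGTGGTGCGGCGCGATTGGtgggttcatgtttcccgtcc
CALR: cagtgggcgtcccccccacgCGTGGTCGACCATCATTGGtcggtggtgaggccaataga
CANX: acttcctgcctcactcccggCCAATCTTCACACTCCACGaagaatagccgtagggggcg
CRELD2: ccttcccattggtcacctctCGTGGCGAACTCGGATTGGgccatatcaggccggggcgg
ERO1B: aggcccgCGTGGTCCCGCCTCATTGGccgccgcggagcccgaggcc
XBP1: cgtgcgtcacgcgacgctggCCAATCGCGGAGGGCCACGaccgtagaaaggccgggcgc
These stretches lie at chr9:125241371-125241429 (minus strand, HSPA5), chr12:103930196-103930359 (plus, HSP90B1), chr19:12938364-12938422 (plus, CALR), chr5:179698758-179698816 (plus, CANX), chr22:49918534-49918592 (plus, CRELD2), chr1:236282163-236282208 (minus, ERO1B) and chr22:28800583-28800641 (minus, XBP1). By role, 5 of the 11 chaperones held the element, with ERO1B and XBP1 the only other members searched that did. The letters CCACG alone were in 28 of the 38 windows (73.7%) and in 38.1% of all windows, and every full element also holds them.

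The element bound by ATF4 with a C/EBP partner, written TGATG, 1 base of any kind, then AA, was in the windows of 3 of the 38 genes (7.89%), against 3.62% of all windows. These 3 are shown because they include CHAC1 and ASNS, the genes of the ATF4 arm with the largest change with RX-5902 and in the knockdown. On the opposite strand the element reads TT, 1 base, CATCA.
HERPUD1: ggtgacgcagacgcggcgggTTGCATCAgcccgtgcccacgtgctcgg
CHAC1: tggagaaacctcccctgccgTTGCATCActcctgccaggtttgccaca
ASNS: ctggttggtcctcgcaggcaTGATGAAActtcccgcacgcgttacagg
They lie at chr16:56931946-56931993 (plus strand, HERPUD1), chr15:40953242-40953289 (plus, CHAC1) and chr7:97872449-97872496 (minus, ASNS). A match is a description of the sequence and not a shown binding site.

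Libraries held 17603589 to 19674098 counts in the knockdown experiment and 20264250 to 20367575 in the compound experiment. DDX5 itself was at 159, 164 and 161 CPM (the gene's count relative to the library's total, scaled within each experiment by the TMM method) in shDDX5 cells, against 755, 718 and 729.5 CPM in shControl cells, a 4.55-fold lower level (log2 change -2.19 with an SE of 0.08, and an edgeR adjusted p of 3.68e-06). In RX-5902 cells DDX5 was at 1108, 1067 and 1023 CPM, against 854, 868 and 863 CPM in DMSO cells. DDX5 RNA was thus higher with the compound (log2 0.31, SE 0.04, edgeR adjusted p = 1.69e-09), opposite to the knockdown. That call was lost in a test against a fold of 1.2. The myeloid genes CD33, SPI1 and FLT3, from a list of 9, were measured in every library, at lowest 50.8, 113 and 257 CPM. CD14 of that list was low, at 1.88 to 2.78 CPM in shDDX5 cells and 6.42 to 7.2 CPM in shControl cells. In the compound experiment CD14 was at 0.0479 to 0.146 CPM in RX-5902 cells and 0.0 to 0.1 CPM in DMSO cells. Of 6 plasma cell markers, a cell type rich in ER, JCHAIN, TNFRSF17 and IGKC were at 0 in all 12 libraries, and the list summed to 0.157 to 0.284 CPM in shDDX5 cells, 0.246 to 0.349 CPM in shControl cells, 0.767 to 1.16 CPM in RX-5902 cells and 0.902 to 1.26 CPM in DMSO cells. In bulk RNA, fewer cells with a transcript and less of it per cell cannot be told apart.

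Replicate 1 of shDDX5 stood apart from its partners. Its chi-square per gene was 52.46 to replicate 2 and 52.68 to replicate 3, while all other pairs within a group lay between 1.764 and 6.617. Its log2 ratio to the mean of replicates 2 and 3 went down with the summed exon length of the gene, with a Spearman rho of -0.641 over the 39 tested members and -0.598 over 9932 genes of at least 5 CPM in shDDX5 cells. Short members read high in it, such as SDF2L1 (0.65), SEC61B (0.59), MANF (0.57) and DDIT3 (0.55), and the longer HYOU1 (-0.68), SEL1L (-0.59) and ERN1 (-0.51) read low. Mitochondrial genes made up 10.3% of its counts, against 8.09% and 7.71% in its partners and 6.17% to 7.75% in shControl libraries. It had counts for 22779 genes, fewer than the 23710 to 23982 of the other libraries of that experiment. Knockdown counts of members and lists are therefore also given without this library, and the part of these differences in the results was not tested beyond that.

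**Figure D1:**
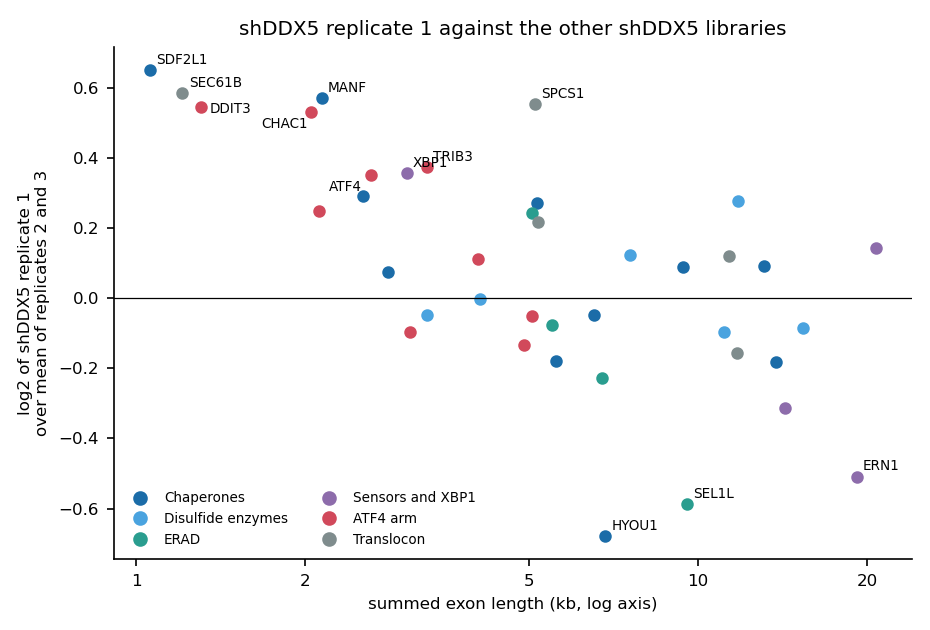
Log2 ratio of shDDX5 replicate 1 to the mean of shDDX5 replicates 2 and 3 (y axis) against summed exon length in kb (x axis, log scale) for the 39 tested members, coloured by role. The points run from SDF2L1, at 0.65, down to HYOU1, at -0.68.

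Most ER chaperone and disulfide genes were higher in shDDX5 cells than in shControl cells, and most members were lower in RX-5902 cells than in DMSO cells. Summed over all 40 genes the level was 11165 to 11521 CPM in shDDX5 cells, against 8690.0 to 8847 CPM in shControl cells. With the compound it was 6911 to 7009.9 CPM in RX-5902 cells, against 10344 to 10398 CPM in DMSO cells. In the knockdown 18 of the 39 tested members rose and 8 fell (edgeR adjusted p under 0.05), where 28.3% of all 14463 genes tested rose and 28.2% fell. Without shDDX5 replicate 1 the members' counts were 22 risen and 11 fallen, where 35.7% of 14916 genes rose and 35.8% fell. With RX-5902, 5 members rose and 30 fell, where 32.2% of all 13941 genes tested rose and 31.9% fell. The members' median log2 change was 0.24 in the knockdown and -0.36 with the compound, beside medians of -0.0007 and 0.0123 over all genes tested. WFS1, which encodes the ER membrane protein wolframin, had 0 counts in all 12 libraries, which allows at most 0.147 to 0.17 CPM in a library (3 counts), and was not tested.

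**Figure D2:**
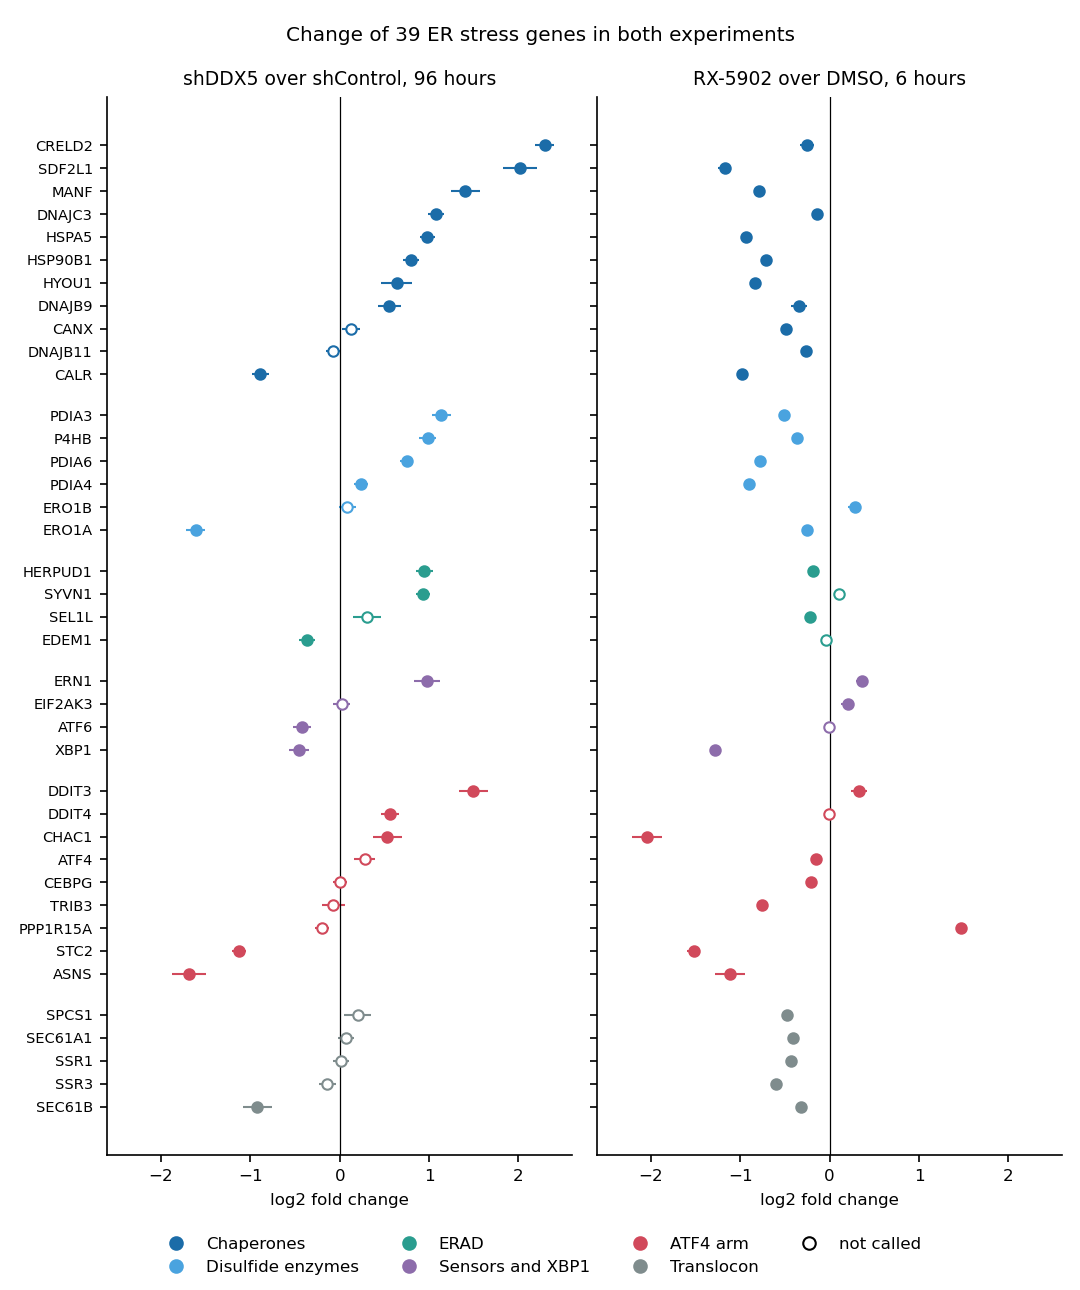
Log2 fold change of the 39 tested members, shDDX5 over shControl at 96 hours (left) and RX-5902 over DMSO at 6 hours (right), ordered within role groups by the knockdown change. Bars are 1 standard error, filled points passed an adjusted p of 0.05, and open points did not. All 11 chaperones lie left of 0 with RX-5902, while 8 of them rose in the knockdown.

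Of the 11 chaperones 8 rose and 1 fell in shDDX5 cells (median log2 0.80, and 9 and 1 without shDDX5 replicate 1), and 0 rose and 11 fell in RX-5902 cells (median -0.71). For this and each role group below, the shares over all genes tested were 28.3% risen and 28.2% fallen in the knockdown. These shares were 35.7% and 35.8% without shDDX5 replicate 1, and 32.2% and 31.9% with the compound. The central chaperone BiP, gene HSPA5 (ENSG00000044574.9, chr9:125234853-125241382), was at 1102, 1130.0 and 1148 CPM in shDDX5 cells, against 565, 570.5 and 581 CPM in shControl cells. With the compound HSPA5 was at 393, 398 and 381 CPM in RX-5902 cells, against 749.9, 748 and 745 CPM in DMSO cells. Every shDDX5 library was above every shControl library and every RX-5902 library below every DMSO library. HSPA5 was 1.97-fold higher in the knockdown (log2 0.98, SE 0.08, edgeR adjusted p = 4.07e-05) and 1.91-fold lower with the compound (log2 -0.94, SE 0.04, edgeR adjusted p = 2.94e-24). HSP90B1, the ER member of the HSP90 family, was at 1549, 1475 and 1434 CPM in shDDX5 cells, against 841, 866 and 855 CPM in shControl cells. For the same gene the values were 675, 635 and 598 CPM in RX-5902 cells, against 1006, 1025 and 1096 CPM in DMSO cells. Neither pair of groups overlapped, and the log2 changes of HSP90B1 were 0.80 and -0.71. HYOU1 encodes a large chaperone that helps BiP exchange its nucleotide. It was at 208, 334 and 332 CPM in shDDX5 cells, where replicate 1 was the low value, against 182, 189.5 and 189.5 CPM in shControl cells. HYOU1 rose by 0.64 (SE 0.17, edgeR adjusted p = 0.0133), at 0.83 when shDDX5 replicate 1 was left out and an edgeR adjusted p of 0.0596 without shControl replicate 1. In RX-5902 cells HYOU1 was at 139, 151 and 146 CPM, against 261, 264 and 251 CPM in DMSO cells, and fell by 0.83.

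The largest chaperone rises of the knockdown were in CRELD2, SDF2L1 and MANF, small luminal or secreted proteins. CRELD2 (chr22:49918167-49927540), whose protein is released from stressed cells, was at 128, 105 and 108 CPM in shDDX5 cells, against 23.5, 24.2 and 21.9 CPM in shControl cells. With the compound it was at 13.5, 14.2 and 14.1 CPM in RX-5902 cells, against 15.3, 17.5 and 17.0 CPM in DMSO cells. The knockdown groups were far apart at 4.90-fold (log2 2.29, SE 0.11, edgeR adjusted p = 4.5e-06), and the compound groups stood close, at a log2 change of -0.25 (SE 0.08, edgeR adjusted p = 0.00461). CRELD2 shares 168 exonic bases with ALG12 on the opposite strand, which had at most 349 counts in a library. No strand setting of the counting was given. SDF2L1 (chr22:21642302-21644299), a partner of the ER co-chaperone DNAJB11, was at 152, 91.6 and 102 CPM in shDDX5 cells, against 25.7, 30.8 and 29.0 CPM in shControl cells. It was at 12.8, 14.1 and 15.5 CPM in RX-5902 cells, against 31.1, 34.1 and 30.4 CPM in DMSO cells. SDF2L1 was 4.04-fold higher in the knockdown (log2 2.01, SE 0.19, edgeR adjusted p = 6.92e-05, and 1.76 without shDDX5 replicate 1) and 2.26-fold lower with the compound (log2 -1.17, SE 0.07, edgeR adjusted p = 1.37e-17). MANF, a secreted protein that is retained by BiP at rest, was at 173, 114 and 119 CPM in shDDX5 cells, against 49.0, 52.7 and 51.5 CPM in shControl cells. In RX-5902 cells MANF was at 31.5, 32.7 and 35.2 CPM, against 60.6, 53.1 and 58.2 CPM in DMSO cells. Its log2 changes were 1.41 (1.19 without shDDX5 replicate 1, the high value) and -0.79, with no overlap between groups in either experiment.

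Among the co-chaperones of BiP, DNAJC3 and DNAJB9 rose in the knockdown, and all 3 fell with the compound. DNAJC3, also known as an inhibitor of PERK, was at 179.9, 209.5 and 198 CPM in shDDX5 cells, against 93.0, 95.5 and 89.4 CPM in shControl cells. It was at 102, 103 and 101 CPM in RX-5902 cells, against 108, 112 and 118 CPM in DMSO cells. The rise was 1.08 on the log2 scale and the fall 0.14. DNAJB9, which opposes IRE1, was at 19.9, 14.9 and 17.6 CPM in shDDX5 cells, against 12.7, 12.3 and 10.7 CPM in shControl cells. With the compound DNAJB9 was at 9.94, 9.54 and 10.4 CPM in RX-5902 cells, against 12.4, 11.6 and 13.9 CPM in DMSO cells. Groups did not overlap, at log2 changes of 0.55 (SE 0.13, edgeR adjusted p = 0.00682) and -0.34 (SE 0.09, edgeR adjusted p = 0.000915). DNAJB11 had a knockdown value of -0.07 (edgeR adjusted p = 0.46) and fell by 0.26 with the compound.

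Of the lectin chaperones, which hold glycoproteins by their sugar, calreticulin fell in both experiments. Its gene CALR was at 829, 777 and 796 CPM in shDDX5 cells, against 1376, 1546 and 1527 CPM in shControl cells. In RX-5902 cells CALR was at 1051, 1054 and 1054 CPM, against 2050.4, 2106 and 2071 CPM in DMSO cells. It was the chaperone that fell in both experiments, by 0.89 (SE 0.10, edgeR adjusted p = 0.00012) in shDDX5 cells and by 0.98 (SE 0.04, edgeR adjusted p = 9.35e-25) in RX-5902 cells, and its window holds the ER stress element printed above. Calnexin (CANX), its membrane-bound relative, was at 0.13 in the knockdown (edgeR adjusted p = 0.292, and 0.18 with 0.000461 without shDDX5 replicate 1) and fell by 0.49 with the compound. Per kilobase of exon, CALR had the highest level of all members in each of the 4 groups, at 286 CPM per kb in shDDX5 cells, 529 in shControl cells, 376 in RX-5902 cells and 741 in DMSO cells.

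**Figure D3:**
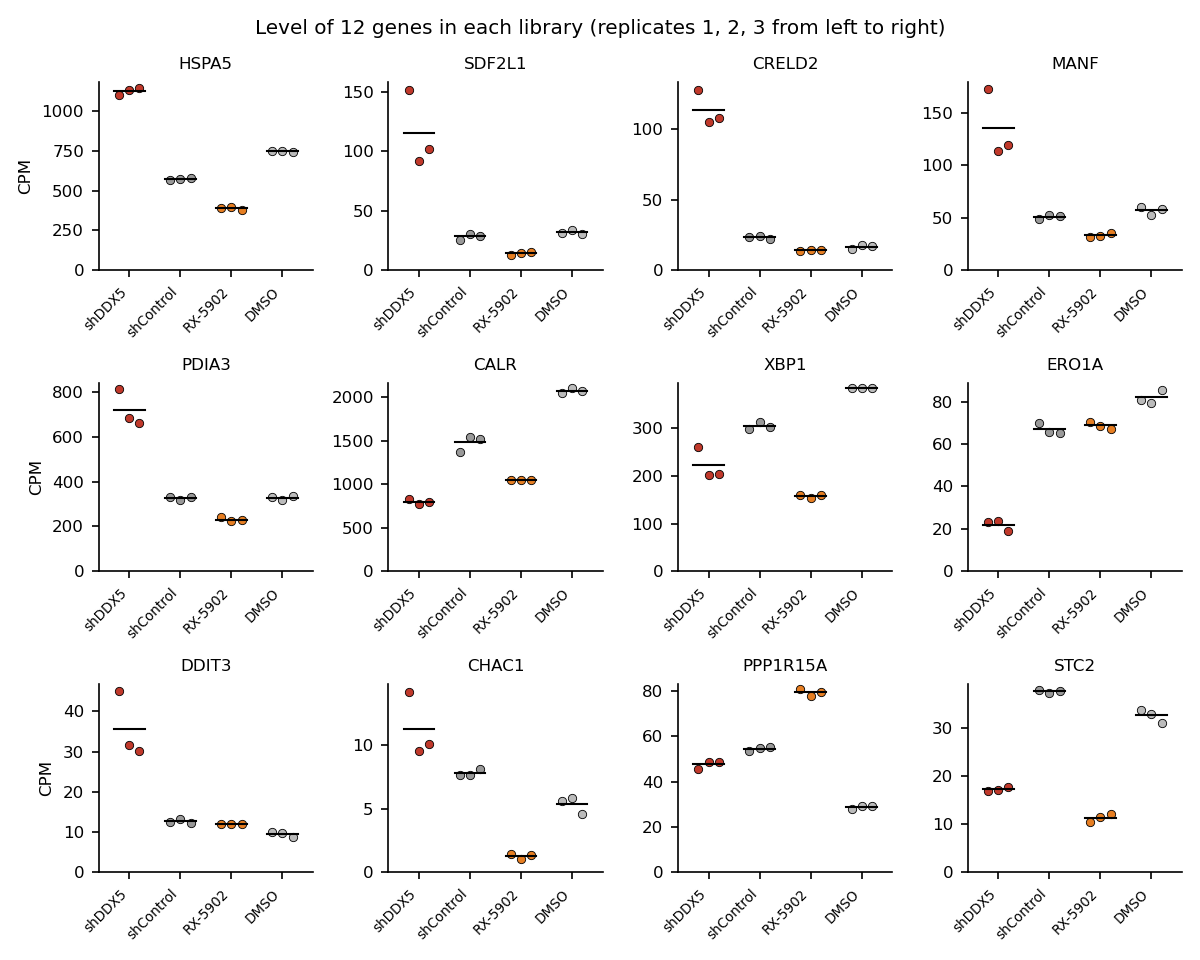
Level in CPM (y axis, from 0, scaled within each experiment) of 12 members in each library of shDDX5, shControl, RX-5902 and DMSO cells, with replicates 1, 2 and 3 from left to right and a line at the group mean. HSPA5, SDF2L1, CRELD2, MANF and PDIA3 are above shControl in every shDDX5 library and below DMSO in every RX-5902 library.

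Disulfide enzymes split between the isomerases and an oxidase in the knockdown. Of 6 genes 4 rose and 1 fell in shDDX5 cells (median 0.49, with the same counts without shDDX5 replicate 1), and 1 rose and 5 fell in RX-5902 cells (median -0.44). PDIA3, the isomerase that works with the lectin chaperones, was at 814, 684 and 660.5 CPM in shDDX5 cells, against 332, 319 and 330.4 CPM in shControl cells. With the compound PDIA3 was at 240.1, 225 and 227 CPM in RX-5902 cells, against 331, 319 and 337 CPM in DMSO cells. Groups were apart in both experiments, at 2.20-fold higher (log2 1.14, SE 0.10, edgeR adjusted p = 5.7e-05) and 1.42-fold lower (log2 -0.51, SE 0.04, edgeR adjusted p = 2.67e-15). A processed copy, PDIA3P1, was at 1.1 to 7.13 CPM and held 0.672% as many counts as PDIA3. P4HB, the classical protein disulfide isomerase, was at 1340.2, 1409.7 and 1459 CPM in shDDX5 cells, against 672, 719 and 737 CPM in shControl cells. It was at 621, 647 and 641 CPM in RX-5902 cells, against 818, 851 and 787 CPM in DMSO cells. P4HB rose by 0.98 and fell by 0.36. PDIA6, an isomerase bound to BiP, was at 351, 354 and 349.8 CPM in shDDX5 cells, against 213, 209 and 206 CPM in shControl cells. In RX-5902 cells PDIA6 was at 143, 139 and 135 CPM, against 245, 239 and 233 CPM in DMSO cells. Changes of 0.75 and -0.78 for PDIA6 were thus close in size and opposite in sign. PDIA4 was at 217, 226 and 224 CPM in shDDX5 cells, against 177, 193 and 197 CPM in shControl cells. It was at 144, 149.8 and 148 CPM in RX-5902 cells, against 271, 281 and 272 CPM in DMSO cells.

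The fall of PDIA4 was clear (log2 -0.90, SE 0.04, edgeR adjusted p = 4.24e-23) and its rise small (0.24, SE 0.08, edgeR adjusted p = 0.0362). PDIA4 was not called in the knockdown without shControl replicate 1, 2 or 3 (edgeR adjusted p = 0.164, 0.113 and 0.0905) or without shDDX5 replicate 2 or 3 (0.0925 and 0.0854). ERO1A, the oxidase that recharges the isomerases and is also known as a target of the ATF4 arm and of hypoxia, went the other way in the knockdown. It was at 23.2, 23.8 and 18.8 CPM in shDDX5 cells, against 69.8, 65.9 and 65.3 CPM in shControl cells. With the compound ERO1A was at 70.6, 68.6 and 67.3 CPM in RX-5902 cells, against 80.8, 79.5 and 85.7 CPM in DMSO cells. ERO1A fell 3.06-fold in the knockdown (log2 -1.61, SE 0.11, edgeR adjusted p = 1.41e-05) and 1.19-fold with the compound. Its paralog ERO1B, at 16.5 to 18.8 CPM in the knockdown experiment, had a value of 0.09 (edgeR adjusted p = 0.445) and rose by 0.28 with RX-5902.

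Among the 4 ERAD genes 2 rose and 1 fell in shDDX5 cells (median 0.62, and 3 and 1 without shDDX5 replicate 1), and 0 rose and 2 fell in RX-5902 cells (median -0.11). HERPUD1, which gathers the degradation complex in the membrane, was at 184, 151 and 159 CPM in shDDX5 cells, against 87.1, 84.6 and 84.4 CPM in shControl cells. It was at 72.8, 73.0 and 71.2 CPM in RX-5902 cells, against 83.0, 85.1 and 79.5 CPM in DMSO cells. HERPUD1 rose by 0.95 (SE 0.10, edgeR adjusted p = 8.88e-05) and fell by 0.19 (SE 0.04, edgeR adjusted p = 0.000301). SYVN1, the ubiquitin ligase of this complex, was at 72.2, 75.3 and 77.2 CPM in shDDX5 cells, against 37.8, 41.4 and 38.8 CPM in shControl cells. In RX-5902 cells SYVN1 was at 41.0, 39.6 and 42.2 CPM, against 40.7, 37.3 and 36.5 CPM in DMSO cells. Its knockdown groups were apart at 1.90-fold, while the compound groups overlapped (log2 0.10, SE 0.06, edgeR adjusted p = 0.118). SYVN1 shares 356 exonic bases with MRPL49 on the opposite strand, and no strand setting of the counting was given. SEL1L, the adaptor of SYVN1, was at 119, 183 and 173 CPM in shDDX5 cells, against 134, 126 and 125 CPM in shControl cells. It was at 132, 124 and 122 CPM in RX-5902 cells, against 148, 145 and 149 CPM in DMSO cells. The low value of shDDX5 replicate 1 overlapped the controls, so that SEL1L stood at 0.30 (edgeR adjusted p = 0.128), and at 0.47 (6.58e-11) without it. EDEM1, a lectin that hands misfolded glycoproteins over, fell by 0.36 in shDDX5 cells and was at -0.04 with the compound (edgeR adjusted p = 0.436).

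The sensors did not move as a group. Of the 4 tested genes 1 rose and 2 fell in shDDX5 cells, with the same counts without replicate 1, and 2 rose and 1 fell in RX-5902 cells. XBP1 (ENSG00000100219.17, chr22:28794555-28800597), whose RNA is the substrate of IRE1, was at 261, 203 and 205 CPM in shDDX5 cells, against 299, 313 and 304 CPM in shControl cells. With the compound XBP1 was at 159, 154 and 159.7 CPM in RX-5902 cells, against 384, 385 and 384 CPM in DMSO cells. Total XBP1 was thus lower in both experiments without overlap, by 0.46 in the knockdown (SE 0.11, edgeR adjusted p = 0.00916, and by 0.59 without shDDX5 replicate 1, the high value) and 2.44-fold with the compound (log2 -1.29, SE 0.04, edgeR adjusted p = 1.66e-28). Counts per gene do not show which share of XBP1 RNA was spliced. ERN1, the gene of IRE1, was at 44.2, 63.6 and 62.3 CPM in shDDX5 cells, against 28.2, 29.1 and 29.2 CPM in shControl cells. It was at 26.6, 27.5 and 26.3 CPM in RX-5902 cells, against 22.5, 20.7 and 19.2 CPM in DMSO cells. ERN1 was higher in both experiments, by 0.98 (SE 0.14, edgeR adjusted p = 0.000596) and 0.37 (SE 0.07, edgeR adjusted p = 8.75e-06). ATF6 fell by 0.42 in the knockdown (0.33 without shDDX5 replicate 1) and was at 0.00 with the compound (118 ± 4.04 CPM in RX-5902 cells and 118 ± 2.1 CPM in DMSO cells, SD, n = 3 each). EIF2AK3, the gene of PERK, was at 0.02 in the knockdown (edgeR adjusted p = 0.846) and rose by 0.20 with the compound. That call was lost without DMSO replicate 1 (0.14, edgeR adjusted p = 0.127) and without RX-5902 replicate 1 (0.17, edgeR adjusted p = 0.062). It was also lost with the DESeq2 Wald test, against a fold of 1.2, and with the gene length correction alone or with a replicate block.

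The ATF4 arm was mixed in the knockdown and mostly lower with the compound. In shDDX5 cells 3 of its 9 genes rose and 2 fell (median 0.002), near the 28.3% and 28.2% of all genes tested. Without shDDX5 replicate 1 the counts were 4 and 4, beside 35.7% and 35.8%. In RX-5902 cells 2 rose and 6 fell (median -0.20), beside 32.2% and 31.9% of all genes. ATF4 itself (ENSG00000128272.18, chr22:39519695-39522683), a factor controlled mainly at translation, was at 818, 633 and 648 CPM in shDDX5 cells, against 587, 582 and 561 CPM in shControl cells. It was at 525, 533 and 550.2 CPM in RX-5902 cells, against 606, 598 and 583 CPM in DMSO cells. Its knockdown value of 0.28 did not pass (SE 0.12, edgeR adjusted p = 0.0736), although the groups did not overlap, and was 0.15 (0.00258) without the high replicate 1. With the compound ATF4 fell by 0.15 (SE 0.04, edgeR adjusted p = 0.000302). DDIT3 (ENSG00000175197.13, chr12:57516588-57521737), which encodes the death-promoting factor CHOP, was at 45.1, 31.7 and 30.1 CPM in shDDX5 cells, against 12.4, 13.1 and 12.3 CPM in shControl cells. In RX-5902 cells DDIT3 was at 11.9, 12.0 and 11.9 CPM, against 10.1, 9.66 and 8.77 CPM in DMSO cells. Every shDDX5 and RX-5902 library lay above its controls, at 2.82-fold (log2 1.50, SE 0.16, edgeR adjusted p = 0.000123, and 1.29 without shDDX5 replicate 1) and 1.25-fold (log2 0.33, SE 0.09, edgeR adjusted p = 0.00131). DDIT3 shares 355 of its 1307 exonic bases with the abundant MARS1 on the opposite strand, so its values are uncertain without a known strand setting.

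CHAC1, ASNS and STC2 fell with the compound, and in the knockdown CHAC1 rose while the other genes fell. CHAC1, which breaks down glutathione, was at 14.2, 9.56 and 10.1 CPM in shDDX5 cells, against 7.62, 7.64 and 8.09 CPM in shControl cells. With the compound it was at 1.45, 1.05 and 1.36 CPM in RX-5902 cells, against 5.61, 5.82 and 4.56 CPM in DMSO cells. CHAC1 was the member with the largest fall under RX-5902, at 4.13-fold lower (log2 -2.05, SE 0.17, edgeR adjusted p = 1.06e-13). Its knockdown rise of 0.53 (SE 0.16, edgeR adjusted p = 0.0216) was 0.33 without shDDX5 replicate 1 and was not called without shControl replicate 1, 2 or 3 (edgeR adjusted p = 0.0818, 0.0767 and 0.0615). ASNS, which makes asparagine, was at 0.966, 1.08 and 1.04 CPM in shDDX5 cells, against 3.34, 3.7 and 2.96 CPM in shControl cells. It was at 1.79, 1.58 and 2.23 CPM in RX-5902 cells, against 4.19, 4.5 and 3.46 CPM in DMSO cells. ASNS was lower in both experiments (log2 -1.69 and -1.12), on 17 to 89 counts a library, and 2415 of its 4896 exonic bases overlap a gene annotated on the same strand, so that its low counts are uncertain. STC2, a secreted glycoprotein, was at 16.8, 17.1 and 17.6 CPM in shDDX5 cells, against 37.8, 37.2 and 37.6 CPM in shControl cells. In RX-5902 cells STC2 was at 10.4, 11.5 and 12.1 CPM, against 33.7, 32.9 and 31.0 CPM in DMSO cells. Both falls were clear of the replicate spread, at 2.19-fold (edgeR adjusted p = 1.54e-05) and 2.87-fold (edgeR adjusted p = 3.08e-21).

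PPP1R15A, which encodes the GADD34 subunit that undoes eIF2alpha phosphorylation, was singled out after its values were seen. It was at 80.7, 77.7 and 79.8 CPM in RX-5902 cells, against 27.9, 29.1 and 29.1 CPM in DMSO cells. PPP1R15A was the member with the largest rise under the compound, at 2.76-fold (log2 1.47, SE 0.05, edgeR adjusted p = 1.98e-25), and its knockdown value was -0.20 (SE 0.08, edgeR adjusted p = 0.06, and -0.17 with 0.0107 without shDDX5 replicate 1). DDIT4, an inhibitor of mTORC1 signalling, rose by 0.56 in shDDX5 cells and was at -0.01 with the compound (edgeR adjusted p = 0.904). TRIB3, a pseudokinase induced by ATF4 and CHOP, fell by 0.76 with the compound and was at -0.07 in the knockdown (edgeR adjusted p = 0.654, and -0.21 with 0.00375 without shDDX5 replicate 1). CEBPG, a dimer partner of ATF4, fell by 0.20 with the compound and was at 0.00 in the knockdown (edgeR adjusted p = 0.986).

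At the translocon 0 of 5 genes rose and 1 fell in shDDX5 cells (median 0.015, and 1 and 2 without shDDX5 replicate 1), while all 5 fell in RX-5902 cells (median -0.44). SEC61B, a small subunit of the entry channel, was at 69.3, 46.8 and 45.6 CPM in shDDX5 cells, against 103, 107 and 96.4 CPM in shControl cells. It was at 55.4, 52.5 and 56.3 CPM in RX-5902 cells, against 72.5, 67.5 and 65.1 CPM in DMSO cells. SEC61B fell by 0.92 (SE 0.16, edgeR adjusted p = 0.00164, and by 1.15 without shDDX5 replicate 1, the high value) and by 0.32. SPCS1, a subunit of the signal peptidase, was at 220.1, 151 and 149 CPM in shDDX5 cells, against 156, 147 and 149.8 CPM in shControl cells. In RX-5902 cells SPCS1 was at 68.6, 69.6 and 72.2 CPM, against 104, 92.8 and 96.7 CPM in DMSO cells. Apart from replicate 1 its shDDX5 libraries lay among the controls (log2 0.20, edgeR adjusted p = 0.289, and -0.01 without that library), and it shares 2705 of 5121 exonic bases with NEK4 on the opposite strand. SSR3, a subunit of the translocon-associated complex, was at 151, 132 and 128 CPM in shDDX5 cells, against 156, 151 and 146 CPM in shControl cells. It was at 103, 104 and 105 CPM in RX-5902 cells, against 149.5, 157 and 166 CPM in DMSO cells. The knockdown groups of SSR3 overlapped (log2 -0.14, edgeR adjusted p = 0.231, and -0.22 with 0.000144 without shDDX5 replicate 1), and its compound groups were apart at -0.60. SEC61A1, the channel itself, and SSR1, of the same complex as SSR3, had knockdown values of 0.07 and 0.02 (edgeR adjusted p = 0.507 and 0.903) and fell by 0.41 and 0.44 with the compound. Without shDDX5 replicate 1 SEC61A1 passed at 0.12 (edgeR adjusted p = 0.0122). SEC61A1 shares 622 exonic bases with RUVBL1 on the opposite strand, so its values are uncertain in the same way.

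Set side by side, 14 members rose in shDDX5 cells and fell in RX-5902 cells. They were HSPA5, HSP90B1, HYOU1, DNAJB9, DNAJC3, SDF2L1, CRELD2, MANF, PDIA3, PDIA4, PDIA6, P4HB, HERPUD1 and CHAC1. That is 35.9% of the 39 tested members, beside 933 of the 13233 genes tested in both experiments (7.05%). Against a fold of 1.2 in place of any change, 8 of the 14 kept both calls, and PDIA4 and CHAC1 lost that of the knockdown and DNAJB9, DNAJC3, CRELD2 and HERPUD1 that of the compound. The same 4 compound calls were lost with all 12 libraries in 1 fit, which left 10 of the 14. Without shDDX5 replicate 1 the 14 remained and ATF4, CANX, SEC61A1 and SEL1L joined them. The reverse pattern, lower with the knockdown and higher with the compound, was found in 0 members, beside 8.8% of genes. PPP1R15A showed it in 4 other settings. These were without shDDX5 replicate 1, all 12 libraries in 1 fit, and the gene length correction alone or with a replicate block. CALR, ERO1A, XBP1, ASNS, STC2 and SEC61B fell in both (15.4% of members, beside 12.8% of genes), and ERN1 and DDIT3 rose in both (5.13%, beside 10.3%). The change in the knockdown was tested against the change with the compound in a fit of all 12 libraries. The difference was above 0 in 28 members and below 0 in 5, where 24.1% of all 15386 genes tested were above and 28.6% below, and the counts were 29 and 5 without shDDX5 replicate 1. It was largest for SDF2L1 (log2 3.18, SE 0.23, edgeR adjusted p = 7.33e-08), CHAC1 (2.56, SE 0.26, edgeR adjusted p = 1.84e-06) and CRELD2 (2.53, SE 0.13, edgeR adjusted p = 3.28e-09), and HSPA5 stood at 1.90 (SE 0.09, edgeR adjusted p = 7.31e-10). Below 0 were PPP1R15A (-1.68), ERO1A (-1.38), SEC61B (-0.62), ATF6 (-0.44) and EDEM1 (-0.35). The call of ATF6 was lost with the gene length correction, alone or with a replicate block. That of EDEM1 was lost against a fold of 1.2 and with the length correction and block together. CALR differed by 0.07 (SE 0.10, edgeR adjusted p = 0.581), and ASNS by -0.59 (SE 0.26, edgeR adjusted p = 0.0734). The experiments differ in time (96 and 6 hours) and in viral infection as well as in the agent, and these cannot be told apart.

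**Figure D4:**
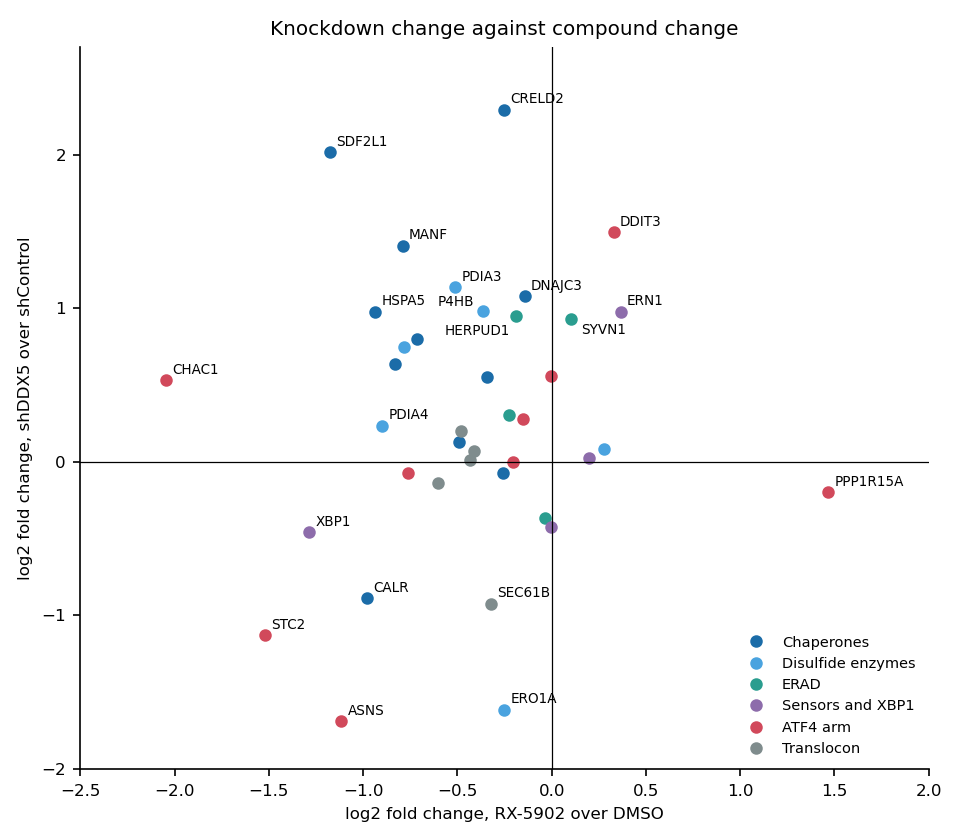
Log2 fold change of the 39 tested members with RX-5902 over DMSO (x axis) and with shDDX5 over shControl (y axis), coloured by role, with names where either change is above 0.85 in size. Chaperones and isomerases fill the upper left, and STC2, XBP1, CALR and ASNS lie at the lower left.

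The arms were drawn with these results known, so their counts are a description. The 25 genes assigned to ATF6 and XBP1 (the chaperones, the isomerases with ERO1B, ERAD and the translocon) had 14 risen and 3 fallen in shDDX5 cells (median 0.55, and 17 and 4 without shDDX5 replicate 1). The 10 genes of the ATF4 arm, here with ERO1A, had 3 risen and 3 fallen (median -0.03, and 4 and 5 without that library), beside 28.3% and 28.2% of all genes. In RX-5902 cells the medians of both arms were below 0, at -0.44 with 1 risen and 22 fallen of 25, and at -0.23 with 2 risen and 7 fallen of 10. Over all genes tested 32.2% rose and 31.9% fell with the compound. No test between the arms was run. Within the 39 members the changes of the 2 experiments had a Spearman rho of 0.0949, within the 25 genes of the ATF6 and XBP1 arm -0.121, and across all 13233 genes 0.132, given as descriptions of genes measured in the same libraries.

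The 7 members with the ER stress element printed above split as well. In shDDX5 cells HSPA5, HSP90B1 and CRELD2 rose, CALR and XBP1 fell and CANX and ERO1B did not pass (4 risen and 2 fallen without shDDX5 replicate 1), and in RX-5902 cells 6 fell and ERO1B rose. Over all genes tested 28.3% rose and 28.2% fell in the knockdown, and 32.2% and 31.9% with the compound. Together the 7 members summed to 4685 to 4759 CPM in shDDX5 cells, against 4025 to 4183 CPM in shControl cells, and to 2958 to 3083 CPM in RX-5902 cells, against 5281 to 5397 CPM in DMSO cells. SDF2L1 and MANF, called in opposite directions in the 2 experiments, had no full element within their windows. Of the 3 genes with the ATF4 element, HERPUD1 and CHAC1 rose and ASNS fell in the knockdown, and all 3 fell with the compound.

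Other genes of the same pathways, 120 in all, were read beside the members. These lists, like the members, were chosen with earlier results of these data known. Their counts stand against the shares over all genes given above, 28.3% risen and 28.2% fallen in the knockdown (35.7% and 35.8% without shDDX5 replicate 1) and 32.2% and 31.9% with the compound. Of 21 other ER folding genes 8 rose and 5 fell in shDDX5 cells (9 and 7 without replicate 1), and 2 rose and 14 fell in RX-5902 cells. In the knockdown they were led by the prolyl isomerase FKBP14 (1.40), the glucosidase MOGS (1.26) and SIL1 (1.19), a nucleotide exchange factor of BiP. With the compound the peroxiredoxin PRDX4 (-1.08) and the disulfide isomerases PDIA5 (-0.89) and TXNDC5 (-0.73) fell most. Of 24 other ERAD genes 9 rose and 7 fell in the knockdown (11 and 8 without that library), and 5 rose and 10 fell with the compound. DERL3 was the lowest in both (-2.21 and -0.89), at group means under 2 CPM. AUP1 rose by 0.79 in shDDX5 cells, and the ubiquitin-conjugating enzyme UBE2G2 fell by 0.69 in RX-5902 cells. Other translocon and sorting genes had 9 risen and 4 fallen of 21 in the knockdown (9 and 8 without shDDX5 replicate 1), and 1 risen and 16 fallen of 20 with the compound, where the signal recognition particle receptor gene SRPRB fell by 0.79. SRP14 (1.08) and the retrieval receptor KDELR1 (0.91) rose in shDDX5 cells.

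Other sensors and regulators had 5 risen and 5 fallen of 16 in the knockdown (7 and 7 without shDDX5 replicate 1), and 4 risen and 10 fallen of 16 with the compound. MBTPS2, the protease that cuts ATF6, fell by 1.52 in shDDX5 cells, and EIF2AK2, the double-stranded RNA kinase PKR that also phosphorylates eIF2alpha, rose by 1.41 there and by 0.53 in RX-5902 cells. The death gene BBC3 rose by 1.01 with the compound. Among other ATF4 targets 14 rose and 11 fell of 36 in the knockdown (17 and 15 without it), and 4 rose and 26 fell of 35 with the compound. The proline synthesis enzyme ALDH18A1 was at 53.4 ± 3.28 CPM in shDDX5 cells and 281 ± 5.23 CPM in shControl cells (SD, n = 3 each), a log2 change of -2.40. The glutamine transporter SLC1A5 fell by 1.79 and the stress cytokine GDF15 rose by 1.65. In RX-5902 cells the amino acid transporter SLC7A5 was at 186 ± 9.55 CPM, against 564 ± 13.7 CPM in DMSO cells (SD, n = 3 each), a log2 change of -1.60. The serine synthesis enzyme PSAT1 fell by 1.44, and KLHL24 rose by 1.45.

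**Figure D5:**
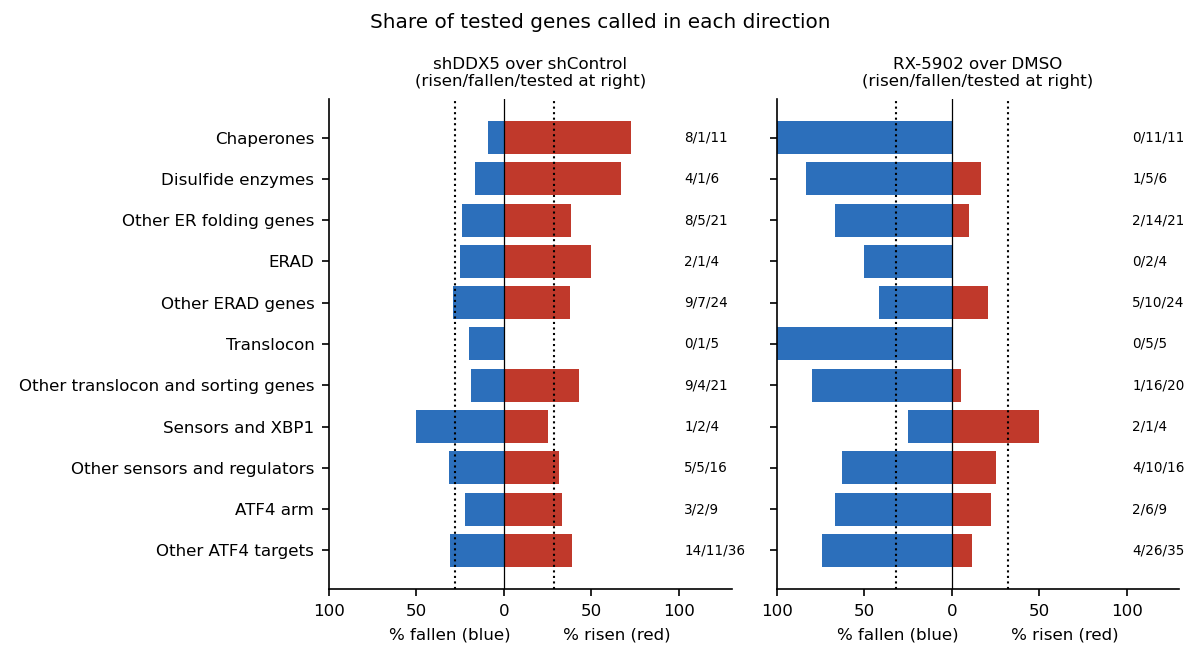
Share of tested genes that fell (blue, to the left) or rose (red, to the right) in each role group and each list of other pathway genes, with the counts at the right of each panel and dotted lines at the shares over all genes tested. Every list except the sensors and XBP1 has more fallen than risen genes with RX-5902.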

How the data were processed

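RNA from MOLM-14 cells was sequenced with MGIEasy Fast RNA libraries, per the labels' protocols. The authors deposited 1 table of raw, not normalized gene counts for each experiment. Named in the submitters' processing notes are the build GRCh38.p13, DESeq2 1.46.0 in R 4.4.2, Subread 2.0.3 with featureCounts, Picard 2.8.0, STAR 2.7.9a and Trim Galore 0.6.7. Neither strand setting nor annotation release is given in the sources used here. A line broken in 3 in each table was rejoined. Symbols were matched for all but 149 of 61906 genes.

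Groups came from the labels, which name 3 biological replicates in each group, and p-values measure their spread. Each experiment was fitted alone in R 4.3.3 with edgeR 4.0.16 (TMM, filterByExpr and the quasi-likelihood F test), and a gene was called where its p, adjusted by Benjamini-Hochberg across every tested gene, was under 0.05. The difference of the changes was fitted over all 12 libraries. Scripts were tested on simulated data. The members and lists were chosen with earlier results of these data known. Per-library values are given for HSPA5, XBP1, ATF4 and DDIT3, for the 2 members of each role group with the largest change in each experiment, and for members called in opposite directions. For the other pathway genes, examples were taken from the 3 called genes with the largest change per list and experiment. Markers of myeloid, plasma, B, T and NK, erythroid, fibroblast, and epithelial or packaging cells were also summed. Alternatives were DESeq2 1.42.0 (size factors and Wald test), no filter, a filter of 1 CPM in 3 libraries, a test against a fold of 1.2, a replicate block, a gene length correction, 1 fit of all 12 libraries, and leaving out each library.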

Additional observations from a re-analysis of the deposited data

How the results depend on the processing

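No called member turned its sign under any of 15 alternatives for each experiment or 20 for the difference. Of the members' values, the knockdown lost 9 and gained 7 calls over 234 values with 1 library left out, and lost 8 and gained 12 over 351 at other settings. The compound experiment lost 2 of 234 and 25 of 351, and the difference lost 0 and gained 2 of 468 with 1 library left out, and lost 7 and gained 5 of 312 at other settings. Against a fold of 1.2, calls with RX-5902 fell to 1 member risen (PPP1R15A) with 2574 risen and 2621 fallen genes in all, and 20 members fallen. With the gene length correction and a replicate block together, 3 members had a difference below 0, as ATF6 and EDEM1 lost their calls. The median of the 4 sensor genes in the knockdown, -0.20, was 0.0426 with the length correction and 0.036 with the block added. The cause was not tested. Leaving out 1 library gave 15 to 22 members risen and 8 to 11 fallen in the knockdown (3239 to 5318 and 3381 to 5334 of all genes), 4 to 5 and 30 with the compound (4115 to 4388 and 4213 to 4419), and 28 to 29 above and 5 below 0 for the difference (3488 to 4487 and 3949 to 5056). The highest knockdown counts were those without shDDX5 replicate 1. No pairing of libraries by replicate number was detected. Same-numbered deviations correlated at -0.0928, -0.192 and 0.0727 in the knockdown and at -0.193, 0.0606 and -0.258 with the compound. With 3 libraries a group, such values cannot show whether same-numbered libraries were prepared together. With the number as a replicate block the members' counts were 17 and 8, 5 and 30, and 28 and 5, and those of all genes 3720 and 3806, 4362 and 4320, and 3471 and 4149. Counts were low for ASNS, at 17 to 89 a library, and for CHAC1, at 22 to 250, and WFS1 had 0.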

Other observations

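Outside the members, 17 other symbols had the ER stress element within their RefSeq window, and 8 of them were tested in each experiment. In shDDX5 cells 4 of the 8 rose and 3 fell, beside 28.3% and 28.2% of all genes, and in RX-5902 cells 4 rose and 2 fell, beside 32.2% and 31.9%. FICD, the enzyme that attaches and removes AMP on BiP, rose by 2.11 in shDDX5 cells (edgeR adjusted p = 7.42e-06) and by 0.26 in RX-5902 cells (edgeR adjusted p = 0.0312). SERP1, a small protein of the translocon, rose by 0.49 in shDDX5 cells and fell by 0.28 in RX-5902 cells. ALG12, a mannosyltransferase whose start lies beside that of CRELD2 on the opposite strand, rose by 0.76 in shDDX5 cells and was at -0.05 in RX-5902 cells (edgeR adjusted p = 0.649). ALG12 and CRELD2 share 168 exonic bases, so the values of ALG12 are uncertain without a known strand setting. EIF2A (-0.44), SYNPO (-0.76) and ZNF17 (-0.45) were the 3 that fell in shDDX5 cells (edgeR adjusted p = 0.00546, 0.00278 and 0.0161). In RX-5902 cells EIF2A rose by 0.156 and SYNPO by 0.42, and ZNF17 fell by 0.41. TMEM120A rose by 0.51 in shDDX5 cells and was at 0.10 in RX-5902 cells (edgeR adjusted p = 0.379). TRIM5 was at 0.07 in shDDX5 cells (edgeR adjusted p = 0.578) and rose by 0.38 in RX-5902 cells. These genes were looked up after the members' values were known, and no test of them as a group was run.

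The 9 myeloid genes summed to 13359 to 14685 CPM in shDDX5 cells, against 4169 to 4535 CPM in shControl cells, and to 1437 to 1489 CPM in RX-5902 cells, against 1385 to 1408 CPM in DMSO cells. Taken singly, 6 rose and 3 (CD14, FLT3 and PTPRC) fell in shDDX5 cells, beside 28.3% and 28.2% of all genes. With the compound 4 rose and 4 fell of the 8 tested, beside 32.2% and 31.9%. Lysozyme (LYZ), a secreted enzyme that folds in the ER, made up most of the knockdown sum, at 12364 to 13761 CPM in shDDX5 cells and 3203 to 3581 CPM in shControl cells, and it was at 251 to 264 CPM in RX-5902 cells and 367 to 388 CPM in DMSO cells. Like HSPA5, lysozyme was above shControl in every shDDX5 library and below DMSO in every RX-5902 library, and its part in the chaperone changes was not tested. T and NK markers summed to 109 to 162 CPM in shDDX5 cells and 70.0 to 75.3 CPM in shControl cells, nearly all of it NKG7 and GNLY with CD3E at or near 0, and to 23.5 to 25.9 CPM in RX-5902 cells and 15.3 to 16.3 CPM in DMSO cells. B cell markers were at 0.627 to 0.906 CPM in shDDX5 cells, 0.739 to 1.54 CPM in shControl cells, 1.99 to 2.11 CPM in RX-5902 cells and 1.35 to 1.52 CPM in DMSO cells. Erythroid markers did not exceed 0.0479 CPM in any library. Fibroblast markers were at 3.52 to 6.06 CPM in shDDX5 cells, 0.591 to 0.747 CPM in shControl cells, 0.815 to 1.07 CPM in RX-5902 cells and 0.253 to 0.501 CPM in DMSO cells, with COL3A1 and DCN at 0. Epithelial and packaging cell markers were at 6.9 to 8.75 CPM in shDDX5 cells, 9.96 to 11.2 CPM in shControl cells, 18.0 to 20.5 CPM in RX-5902 cells and 4.21 to 4.85 CPM in DMSO cells, mostly L1CAM and KRT8.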
